A study of Mus musculus with 15 samples.

Results

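Voltage-gated calcium channels of the mouse cortex were examined through 10 genes: the pore-forming alpha1 subunits Cacna1a, Cacna1b, Cacna1c, Cacna1d, Cacna1e and Cacna1g, the alpha2delta subunits Cacna2d1 and Cacna2d3, and the beta subunits Cacnb3 and Cacnb4. Every transcript whose GENCODE M21 gene name was one of these was taken, which gave 21 of the 10370 listed transcripts and 10 of the 7741 genes. Of 118 transcripts that the annotation holds for these genes, the 21 that were listed are all protein coding. The rule used gene names and no measured value, but the table lists only transcripts with a mean of at least 107.9 normalized counts, and the genes were chosen with earlier results of these data known.

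The libraries came from the cortex of male C57BL/6 mice with a labelled age of 12 weeks. They were taken 1 month after either HF-HI, that is high-frequency head impact, or the Sham procedure. HF-HI mice received several head impacts a day under isoflurane on successive days, and the Sham group went through the procedure, isoflurane included, without being hit. There were 7 Sham and 8 HF-HI libraries, and neither group had a genetic modification or a drug other than isoflurane. The labels do not say whether each library came from a separate mouse, so p-values measure the spread between these libraries.

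A voltage-gated calcium channel opens when the membrane depolarizes and lets calcium into the cell. The alpha1 subunit forms the pore and sets the current type. Cacna1c and Cacna1d encode L-type pores, which couple activity of the cell body and dendrites to kinases and transcription. Cacna1a (P/Q-type) and Cacna1b (N-type) encode the main pores of transmitter release at presynaptic terminals, Cacna1e encodes the R-type pore, and Cacna1g encodes a T-type pore that opens near the resting potential. The alpha2delta subunits are extracellular, membrane-anchored proteins that raise the number of channels at the surface and are the targets of gabapentin in the case of Cacna2d1. The beta subunits bind the alpha1 subunit inside the cell, promote its surface expression and tune its gating.

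The summed expression of 3 of the 10 genes differed between groups at an unadjusted p under 0.05, beside 9.95% of all 7741 genes, and none did after adjustment. Cacna1b was higher in HF-HI (1322 ± 100.03 normalized counts in Sham against 1469 ± 111 in HF-HI), Cacna1d was higher (631 ± 31.7 against 674 ± 27.3) and Cacna1c was lower (708 ± 37.5 against 654 ± 44.5). The other 7 genes had log2 differences between −0.07 and 0.05. Errors given with ± are SDs over the 7 Sham or 8 HF-HI libraries, and normalized counts are reads divided by the size factor of the library, recovered from the deposited values.

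In their coding sequences the transcripts of a gene differed from each other in short stretches. Some of these in Cacna1c, Cacna1d, Cacna2d1 and Cacnb4 are shown here because the results below depend on how reads were divided among the transcripts. Many distinguishing bases are noncoding and are not shown. Of 562 bases of Cacna1c ENSMUST00000078320 in no other listed transcript 84 are coding, and of 249 in Cacnb4 ENSMUST00000078324 0 are. Sequences are from GENCODE M21 transcripts on GRCm38 and read 5′ to 3′ along the gene. In Cacna1c (minus strand), ENSMUST00000112790 and ENSMUST00000078320 each carry one exon of a pair of 84 coding bases that replace each other, with 49 bases identical and 35 different. Their coding sequences have the same length of 6417 bases. In the next 2 lines capitals mark the bases at which the exons differ; the first lies at chr6:118637730-118637813 and the second at chr6:118638427-118638510.
Cacna1c exon of ENSMUST00000112790: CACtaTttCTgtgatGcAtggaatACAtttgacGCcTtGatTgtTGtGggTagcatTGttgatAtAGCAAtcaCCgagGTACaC
Cacna1c exon of ENSMUST00000078320: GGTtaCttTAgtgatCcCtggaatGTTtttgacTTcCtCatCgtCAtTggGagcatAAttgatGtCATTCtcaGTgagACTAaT

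In Cacna1d (minus strand), ENSMUST00000112249 and ENSMUST00000112250 carry alternative exons of 104 coding bases, of which 82 are identical and 22 differ. The exon of ENSMUST00000112249 lies at chr14:30171956-30172059 and that of ENSMUST00000112250 at chr14:30171296-30171399. Both transcripts also start at different first coding exons. Capitals again mark the bases that differ.
Cacna1d exon of ENSMUST00000112249: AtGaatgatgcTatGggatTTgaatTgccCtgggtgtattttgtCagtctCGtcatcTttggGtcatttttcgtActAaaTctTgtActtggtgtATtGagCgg
Cacna1d exon of ENSMUST00000112250: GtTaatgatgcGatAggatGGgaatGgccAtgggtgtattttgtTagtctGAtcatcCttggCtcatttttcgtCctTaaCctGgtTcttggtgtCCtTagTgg

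Cacna2d1 (plus strand) had 4 listed transcripts. An exon of 21 coding bases at chr5:16341990-16342010 is present in ENSMUST00000101581 and ENSMUST00000180204 and absent from ENSMUST00000078272 and ENSMUST00000167946. It is shown in capitals between 15 bases of the neighbouring exons. A second stretch of 15 coding bases at chr5:16326312-16326326, also in capitals, is absent from ENSMUST00000180204 alone.
Cacna2d1 exon of 21 bases: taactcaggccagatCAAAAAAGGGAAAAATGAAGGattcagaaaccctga
Cacna2d1 stretch of 15 bases: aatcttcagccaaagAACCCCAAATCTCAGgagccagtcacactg

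In Cacnb4 (minus strand), ENSMUST00000178799 has an exon of 20 coding bases at chr2:52467144-52467163 where the other 3 listed transcripts have one of the same length at chr2:52465894-52465913. Of the 20 bases, 7 are identical and 13, in capitals, differ.
Cacnb4 exon of ENSMUST00000178799: GaaaaATTTCCTTgCTCgtT
Cacnb4 exon of the other 3 transcripts: CaaaaCAGAAGCAgAAAgtG

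Most bases of a transcript were also in another listed transcript of the same gene, but not always in all of them. In Cacna2d1, ENSMUST00000078272 and ENSMUST00000167946 have 7311 and 7436 bases, against 3879 and 3882 in ENSMUST00000101581 and ENSMUST00000180204. Among the 17 transcripts of the 6 genes with several listed transcripts, 0% to 16.3% of the bases were in no other listed transcript of the gene. The value was 0% for 5 of them, namely Cacna1b ENSMUST00000102939, Cacnb4 ENSMUST00000102760 and Cacna2d1 ENSMUST00000078272, ENSMUST00000180204 and ENSMUST00000101581. Counts per transcript were therefore estimates by the authors' program of how shared reads divide, and transcripts varied far more than their sums. The within-group coefficient of variation (CV) was 12.8% to 86.4% for the 17 transcripts (median 26.8%) and 3.19% to 9.52% for the 6 gene sums (median 6.03%). Gene sums are accordingly given first for each gene.

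Facts of the libraries that touch these values are the following. The reads in listed transcripts numbered 5798810 to 10582858 in Sham and 3496103 to 8666307 in HF-HI, with size factors of 0.818 to 1.47 and 0.501 to 1.22, so HF-HI libraries were on the whole shallower. The calcium channel transcripts held 9226 to 26845 reads per library. All 9 neuronal and all 9 cortical marker genes looked up were listed. The 12 listed of 13 striatal marker genes summed to 10677 to 15726 normalized counts in Sham and 7908 to 15334 in HF-HI. Of their 20 transcripts 3 (15%) were lower in HF-HI at p under 0.05, beside 8.83% of all transcripts called in either direction. The 2 listed of 7 choroid plexus markers summed to 11091 and 11212 in Sham replicates 1 and 2 and to 13832 and 13430 in HF-HI replicates 2 and 5, and to at most 2384 in every other library, while Folr1, Kl, Clic6, Prlr and Aqp1 were not listed. Of the other marker lists, 1 of 23 neuronal (4.35%) and 1 of 14 cortical transcripts (7.14%) were higher. Lower were 1 of 12 astrocyte (8.33%) and 1 of 6 microglial transcripts (16.7%). None of 18 oligodendrocyte and 6 endothelial transcripts was called. The part of these marker differences in the channel results was not tested, apart from the striatal covariate given below. HF-HI replicate 2 stood apart from all others on principal component 1 (14.3% of variance), at 12.6 against at most 3.35 in size for any other library. The tissue of a bulk sample holds many cell types, and fewer cells of a type cannot be told apart from less RNA per cell.

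Levels per kilobase of transcript allow genes to be compared by their listed transcripts (means over all 15 libraries). Among the 10 genes examined, RNA of the auxiliary subunits was the most abundant. Cacna2d1 was highest at 706 ± 43.9 normalized counts per kb, followed by Cacnb4 at 569 ± 33.8, and neither range touched that of the next gene. Cacnb3 (336 ± 31.0), Cacna2d3 (318 ± 15.2) and Cacna1e (294 ± 16.4) formed a group whose neighbours overlapped, with Cacnb3 above Cacna2d3 in 10 of 15 libraries and Cacna2d3 above Cacna1e in 13. By its listed transcript, the R-type gene Cacna1e was thus the most abundant of the alpha1 genes examined. Transcripts that were not listed do not enter this order. The listed subunit genes outside the 10, such as Cacnb1, Cacnb2, Cacna2d2, Cacna1h and Cacna1i, do not enter it either. Listed were 1 of 8 annotated transcripts for Cacna1e, 1 of 11 for Cacna1a, 2 of 27 for Cacna1c and 1 of 16 for Cacna1g. Cacna1a (202 ± 20.7) was above Cacna1b (163 ± 17.0) in all 15 libraries, although their ranges over libraries overlapped. The L-type genes Cacna1c (87.5 ± 6.38) and Cacna1d (79.3 ± 4.39) came next and overlapped, with Cacna1c higher in 11 of 15 libraries. Cacna1g, a T-type gene, was the lowest of the 10 at 17.7 ± 5.58 and lay below each of the others in every library.

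**Figure D1:**
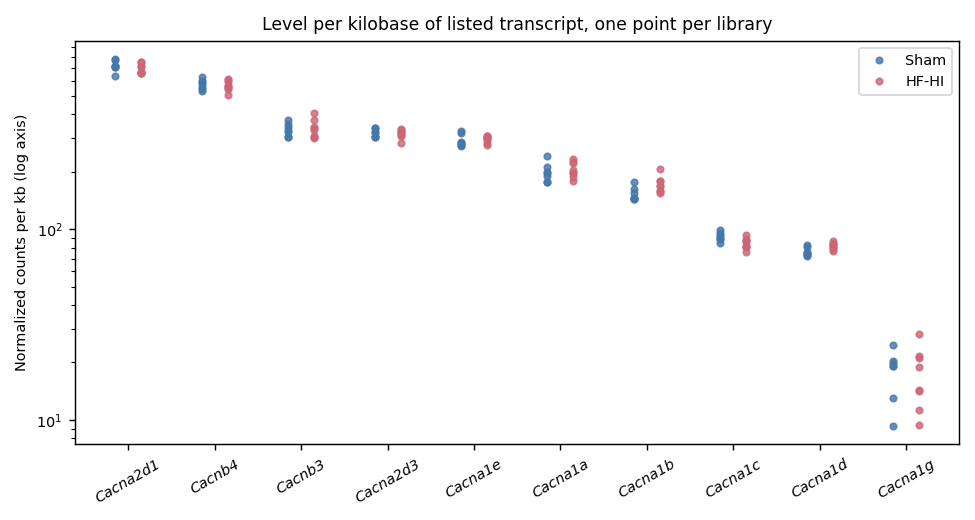
Level of each of the 10 genes in normalized counts per kilobase of listed transcript (vertical log axis), with a point for each of 7 Sham (blue) and 8 HF-HI (red) libraries. Cacna2d1 and Cacnb4 stand above all others and Cacna1g below, and in every gene the points of the groups overlap.

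The genes of the examined set were also summed per class and per kilobase. Its alpha1 subunits stood at 829 ± 47.3 in Sham and 856 ± 36.2 in HF-HI. Its alpha2delta subunits stood at 1038 ± 45.5 and 1011 ± 37.6, and its beta subunits at 907 ± 44.4 and 903 ± 59.2. Listed subunit genes outside this set, such as Cacna1h, Cacna1i, Cacnb1, Cacnb2 and Cacna2d2, do not enter these sums, so the sums do not rank whole classes. These sums were chosen after the values were seen and were not tested; in each class the ranges of the groups overlapped.

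For gene sums, 3 of the 10 genes were called at an unadjusted p under 0.05 (limma on log2 of the sum plus 1), beside 9.95% of all 7741 genes tested the same way, or 770 genes. No gene sum of any gene passed an adjusted p of 0.1, and the smallest adjusted p was 0.109. The median log2 difference was 0.003 over the 10 genes and −0.006 over all genes.

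**Figure D2:**
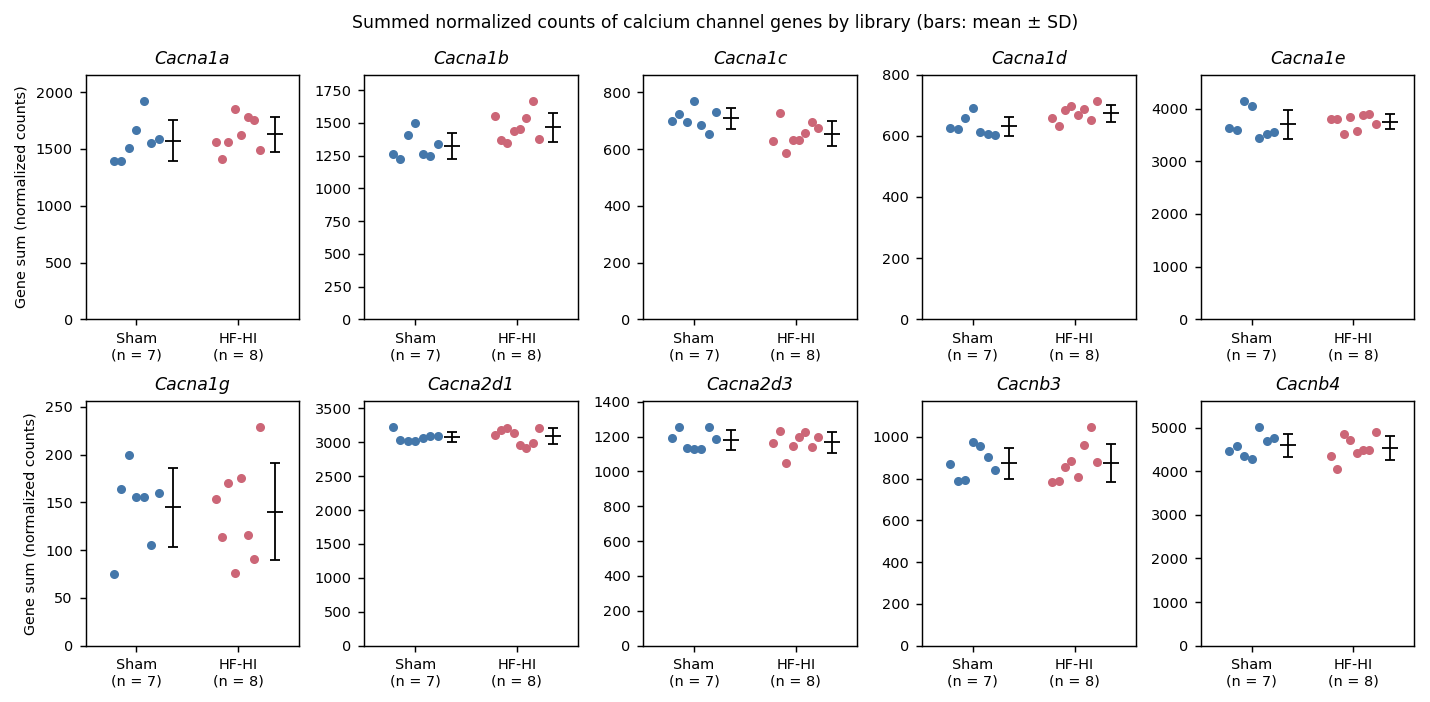
Gene sums in normalized counts (vertical axes, from 0) for the 10 genes, with a point per library in replicate order for 7 Sham (blue) and 8 HF-HI (red) libraries and bars for mean ± SD. All 8 HF-HI points of Cacna1b and Cacna1d lie above the Sham median, and 7 of 8 points of Cacna1c lie below it.

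Of the presynaptic pores, Cacna1b, the N-type gene (transcripts within chr2:24603887-24763152), was higher in HF-HI. The gene sum was 1265, 1223, 1410, 1497, 1266, 1250 and 1340 normalized counts in Sham replicates 1 to 7. In HF-HI it was lowest at 1347, had a median of 1448 and was highest at 1670. All 8 HF-HI libraries were above the Sham median of 1266, and 3 were above every Sham library, so the groups overlapped. The log2 difference was 0.15 with an SE of 0.052 (95% interval 0.043 to 0.26, adjusted p = 0.343), and an exact two-sided permutation gave p = 0.0183. With the log2 size factor as a covariate the difference was 0.11 and was no longer called. Among the 12 libraries with a size factor above 0.7 (7 Sham and 5 HF-HI) it was 0.14, and with the mean standardized level of the striatal markers as a covariate 0.16, both still called.

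No single Cacna1b transcript was called. ENSMUST00000102939, the most abundant, was at 573 to 773 normalized counts in Sham (median 756) and at 525 to 997 in HF-HI (median 694), a VSD difference of 0.01 (adjusted p = 0.970). The variance-stabilized (VSD) scale is the log2-like scale of the deposited values, on which low counts are compressed. ENSMUST00000114447 was at 428 ± 60.9 and 506 ± 144 (adjusted p = 0.705), and ENSMUST00000070864 at 182 ± 38.9 and 229 ± 103 (adjusted p = 0.838). The 3 mean counts were all higher in HF-HI, and none of them passed the test. ENSMUST00000070864 lacks an exon of 108 coding bases at chr2:24618255-24618362 that the other 2 carry, and its share of the sum was 13.8% ± 2.99 in Sham and 15.8% ± 7.36 in HF-HI.

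Cacna1a, the P/Q-type gene, had 1 listed transcript, ENSMUST00000121390 (chr8:84415364-84640246). It was at 1392 to 1923 normalized counts in Sham (median 1552) and at 1409 to 1851 in HF-HI (median 1590), so the HF-HI range lay within the Sham range. Its log2 difference was 0.05 with a 95% interval of −0.096 to 0.20 (adjusted p = 0.851), an interval that reaches the difference seen in Cacna1b. The ratio of Cacna1a to Cacna1b, chosen after the values were seen and not tested, was 1.19 ± 0.154 in Sham and 1.11 ± 0.0901 in HF-HI.

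The L-type genes differed in opposite directions. The Cacna1c sum (transcripts within chr6:118592464-119108236) was 700.3, 723, 695, 770.5, 687, 653 and 731 normalized counts in Sham replicates 1 to 7. In HF-HI it was lowest at 586, had a median of 645 and was highest at 728. Of the 8 HF-HI libraries 7 were below the Sham median of 700.3 and 4 were below every Sham library. The exception was HF-HI replicate 2, at 728, which is the library that stood apart on principal component 1. The log2 difference was −0.12 with an SE of 0.046 (95% interval −0.21 to −0.019, adjusted p = 0.412), and an exact two-sided permutation gave p = 0.0255. Without Sham replicate 4, the highest Sham library, it was −0.10 and no longer called. It was −0.14 without HF-HI replicate 2, −0.16 among libraries with a size factor above 0.7 and −0.11 with the striatal covariate, each still called.

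The Cacna1d sum (transcripts within chr14:30039941-30491156) was 625, 622, 658, 689.7, 613, 605 and 604 normalized counts in Sham replicates 1 to 7. In HF-HI it was lowest at 631, had a median of 675 and was highest at 714. All 8 HF-HI libraries were above the Sham median of 622, and 2 were above every Sham library. Sham replicates 3 and 4 were the Sham libraries that reached into the HF-HI range. On the log2 scale Cacna1d was higher by 0.09 with an SE of 0.038 (95% interval 0.015 to 0.17, adjusted p = 0.412), and an exact two-sided permutation gave p = 0.0172. The difference was 0.11 among libraries with a size factor above 0.7, 0.10 with the size factor as a covariate and 0.10 with the striatal covariate, each still called.

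Set against each other, the L-type genes gave a ratio of Cacna1d to Cacna1c of 0.892 ± 0.0402 in Sham, from 0.825 to 0.947, and of 1.03 ± 0.0937 in HF-HI, from 0.867 to 1.17. The ratio was above every Sham library in 6 of 8 HF-HI libraries. Their summed counts were 1340 ± 62.2 and 1328 ± 40.2. The ratio was chosen after the values were seen and was not tested.

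**Figure D3:**
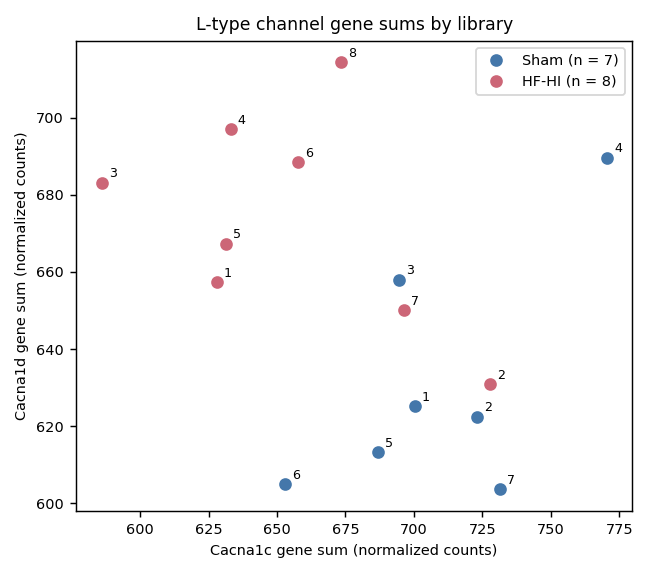
Cacna1d gene sum (vertical axis) against Cacna1c gene sum (horizontal axis), both in normalized counts, with a point per library labelled by replicate number (blue Sham, red HF-HI; axes do not start at 0). The ratio of the vertical to the horizontal value is above that of every Sham library for 6 HF-HI libraries, and HF-HI replicates 2 and 7 lie among the Sham points.

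At the level of transcripts, 2 of the 21 passed an unadjusted p under 0.05, 1 higher and 1 lower, beside 8.83% of all 10370 transcripts (916, with 512 higher and 404 lower). At an adjusted p under 0.1 the count was 0 of 21, beside 0% of all transcripts, where the smallest adjusted p was 0.206. The median log2 ratio of HF-HI to Sham was 0.04 over the 21 transcripts and −0.002 over all. The share of calls among these transcripts is thus near the background.

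The lower transcript was Cacna1c ENSMUST00000112790, the more abundant of the listed pair, which carries the exon at chr6:118637730-118637813 shown above. It was at 630.2, 473, 421, 543, 452, 464 and 629.9 normalized counts in Sham replicates 1 to 7. In HF-HI it was at 375, 408, 406, 411, 339, 628, 351 and 434 in replicates 1 to 8. Of the HF-HI libraries 6 were below every Sham library, and replicate 6 alone was near the top of the Sham range. The means were 516 ± 86.1 and 419 ± 90.6, a VSD difference of −0.10 with an SE of 0.043 (adjusted p = 0.525, exact permutation p = 0.0476). The partner ENSMUST00000078320 was at 192 ± 77.7 and 235 ± 99.0 (adjusted p = 0.874). In HF-HI replicate 6, where ENSMUST00000112790 was highest, ENSMUST00000078320 was lowest at 29.5. The call of ENSMUST00000112790 was lost in 10 of 28 alternatives, including the size factor covariate (−0.09), the striatal covariate (−0.09), the libraries with a size factor above 0.7 (−0.09) and the omission of any of Sham replicates 1, 4 and 7 or HF-HI replicates 1, 5 and 7.

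The higher transcript was Cacna2d1 ENSMUST00000078272 (chr5:15934788-16374504), one of the pair without the 21-base exon shown above. It was at 265, 653, 299.6, 261, 309.8, 390.2 and 99.9 normalized counts in Sham replicates 1 to 7, with replicate 2 far above and replicate 7 far below the rest. In HF-HI it was at 613, 452, 357, 447, 449.6, 418, 517 and 344, and the HF-HI range lay within that of Sham. All 8 HF-HI libraries were nevertheless above the Sham median of 299.6. The means were 326 ± 169 and 450 ± 86.0, a VSD difference of 0.17 with an SE of 0.077 (adjusted p = 0.560). The exact two-sided permutation gave p = 0.0608, so the call was not made by that test. Without Sham replicate 7 the difference was 0.11 and not called, and without Sham replicate 2 it was 0.23 and called. The call was lost in 17 of 28 alternatives, including the size factor covariate (0.12), the striatal covariate (0.17) and the libraries with a size factor above 0.7 (0.15).

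Cacna1d ENSMUST00000112249, the more abundant of its pair, was at 324 to 536 normalized counts in Sham (median 402) and at 365 to 528 in HF-HI (median 496). Of the HF-HI libraries 7 were above the Sham median, with a VSD difference of 0.07 (adjusted p = 0.596). Its partner ENSMUST00000112250 was at 210.4 ± 71.0 and 191 ± 62.6 (adjusted p = 0.910).

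The share of a transcript in its gene sum removes the level of the gene. Over the 17 transcripts of the 6 genes with several listed transcripts, 0 shares differed at an unadjusted p under 0.05 (two-sided exact permutation test over 6435 assignments of the libraries), beside 7.73% of the 4138 shares tested in all. The largest differences were in Cacna1c, Cacnb3 and Cacna2d1. The share of Cacna1c ENSMUST00000112790 was 72.8% ± 11.1 in Sham and 64.3% ± 14.1 in HF-HI (exact permutation p = 0.215, adjusted p = 0.792). That of Cacnb3 ENSMUST00000109150 was 50.4% ± 12.6 and 58.4% ± 9.45 (exact permutation p = 0.190, adjusted p = 0.773). That of Cacna2d1 ENSMUST00000101581 was 74.6% ± 9.29 and 67.3% ± 7.01, with all 8 HF-HI libraries below the Sham median of 76.1% (exact permutation p = 0.108, adjusted p = 0.725).

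**Figure D4:**
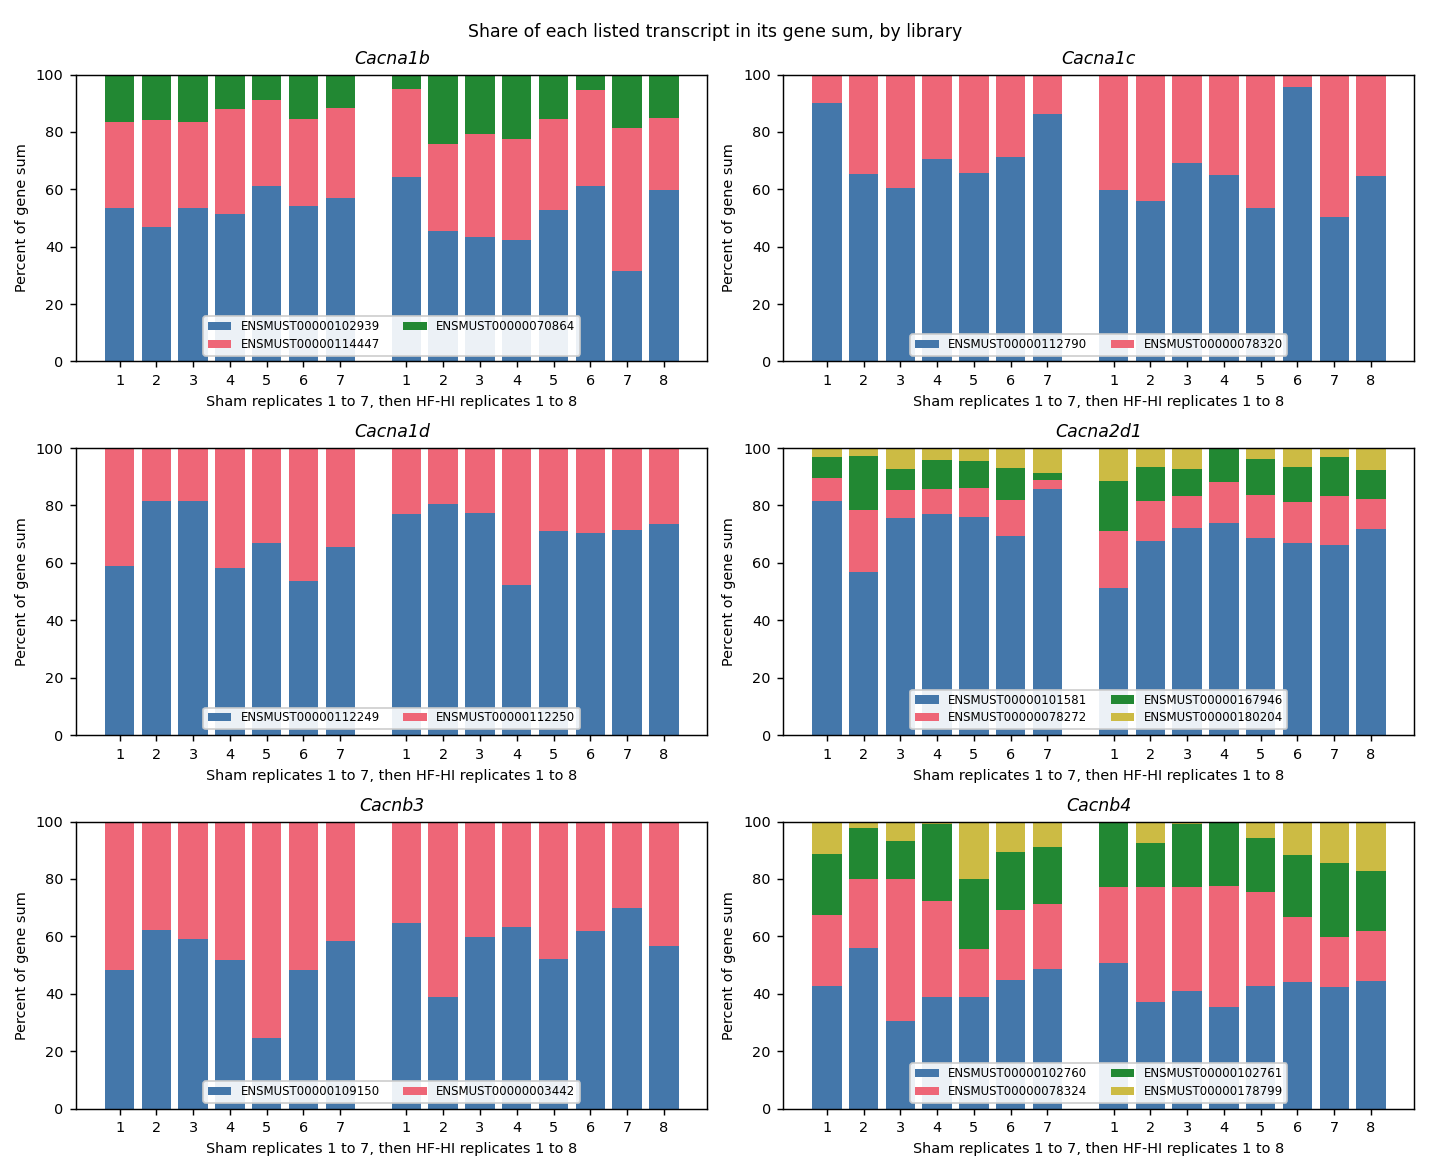
Percent of the gene sum held by each listed transcript (stacked colours, vertical axis from 0 to 100) in each library, for the 6 genes with several listed transcripts, with Sham replicates 1 to 7 at the left and HF-HI replicates 1 to 8 at the right. Shares vary widely between libraries of the same group, as in Cacnb4 ENSMUST00000178799, which ranged from 0.0423% to 20.1%.

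Of the alpha2delta subunits, Cacna2d1 had the lowest within-group CV of the 10 gene sums. It was at 3012 to 3224 normalized counts in Sham (median 3057) and at 2922 to 3211 in HF-HI (median 3120). The difference on the log2 scale was 0.005 with a 95% interval of −0.053 to 0.063 (adjusted p = 0.968). That CV was 3.19%, against 1.85% from counting alone. Within this sum the long transcripts ENSMUST00000078272 and ENSMUST00000167946 (7311 and 7436 bases) differ from ENSMUST00000101581 and ENSMUST00000180204 (3879 and 3882 bases) mainly in the 3′ noncoding end, since all 4 have 3252 to 3273 coding bases. The long pair held 20.1% ± 10.52 of the sum in Sham and 26.9% ± 5.42 in HF-HI, with all 8 HF-HI libraries above the Sham median of 18.9% and none above the highest Sham library. That grouping was chosen after the values were seen and was not tested. ENSMUST00000101581, the most abundant, was at 1728 to 2656 in Sham (median 2327) and at 1595 to 2320 in HF-HI (median 2086), a VSD difference of −0.09 (adjusted p = 0.683).

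Cacna2d3 had 1 listed transcript, ENSMUST00000022567 (chr14:28904943-29721864). It was at 1127 to 1255 normalized counts in Sham (median 1187) and at 1048 to 1231 in HF-HI (median 1180). Its log2 difference was −0.02 with a 95% interval of −0.099 to 0.063 (adjusted p = 0.917). The HF-HI libraries were split evenly about the Sham median, 4 above and 4 below.

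Of the beta subunits, the Cacnb4 sum was at 4274 to 5013 normalized counts in Sham (median 4583) and at 4044 to 4904 in HF-HI (median 4491), a log2 difference of −0.02 (95% interval −0.11 to 0.071, adjusted p = 0.919). Its most abundant transcript ENSMUST00000102760 was at 1327 to 2564 in Sham (median 1950) and at 1505 to 2205 in HF-HI (median 1939). ENSMUST00000178799, with the alternative 20-base exon shown above, was the least steady transcript of the set. It was at 33.3, 27.4, 42.2 and 1.997 normalized counts in Sham replicate 4 and HF-HI replicates 1, 3 and 4, and at 108.8 to 1006 in the other libraries, a within-group CV of 86.4% where counting alone gives 5.20%. The low and high libraries occurred in both groups (adjusted p = 0.873). The Cacnb4 transcripts with the upstream first exon, ENSMUST00000178799 and ENSMUST00000078324, held 36.6% of the sum in each group.

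The Cacnb3 sum was at 789 to 975 normalized counts in Sham (median 868) and at 785 to 1047 in HF-HI (median 869). The groups differed by 0.0014 on the log2 scale, with a 95% interval of −0.13 to 0.14 (adjusted p = 0.998). ENSMUST00000109150, which has its own first coding exon and an exon of 81 coding bases at chr15:98641177-98641257 that ENSMUST00000003442 lacks, was at 236 to 504 in Sham (median 467) and at 308 to 732 in HF-HI (median 509). Of the HF-HI libraries 5 were above every Sham library, and the VSD difference was 0.08 (adjusted p = 0.707).

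The remaining pores showed no called difference. Cacna1e ENSMUST00000004214 (chr1:154392519-154725920), the R-type gene, was at 3444 to 4147 normalized counts in Sham (median 3594) and at 3515 to 3901 in HF-HI (median 3804). Its log2 difference was 0.02 with a 95% interval of −0.065 to 0.11 (adjusted p = 0.905). Cacna1g ENSMUST00000107793 (chr11:94408391-94474100), a T-type gene, was at 75.0 to 199 in Sham (median 155) and at 75.9 to 229 in HF-HI (median 134). Its interval was wide, from −0.56 to 0.42 about a log2 difference of −0.07 (adjusted p = 0.949), and the within-group CV of 32.7% compares with 8.37% from counting alone. A difference in Cacna1g of the size seen in Cacna1b was not detectable with this spread.

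**Figure D5:**
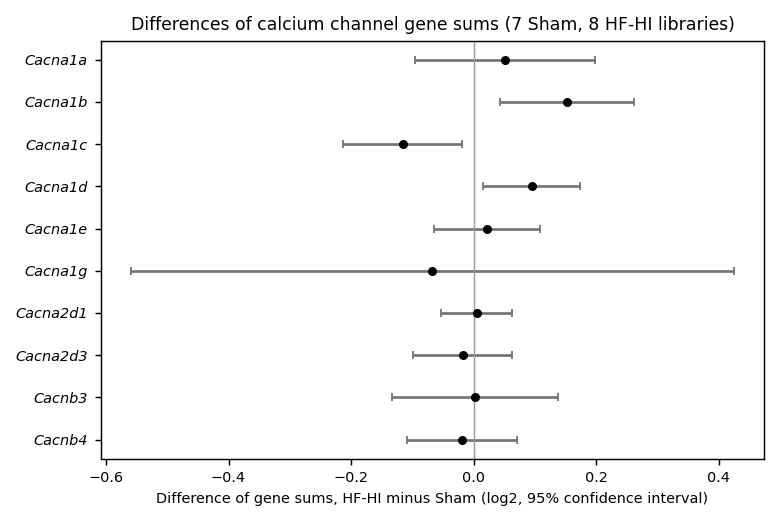
Log2 difference of gene sums, HF-HI minus Sham (horizontal axis), with 95% confidence intervals from limma for the 10 genes. The intervals of Cacna1b, Cacna1c and Cacna1d exclude 0, before any adjustment for the number of genes, and that of Cacna1g is the widest.

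Among 16 other genes of calcium channel subunits, 10 were listed, each with 1 transcript, and 6 were not (Cacna1f, Cacna1s, Cacna2d4, Cacng1, Cacng5 and Cacng6). None was higher and 1 (10%) was lower at an unadjusted p under 0.05, beside 8.83% of all transcripts called in either direction. This share is near the background. The lower one was Cacnb2, a further beta subunit. Its ENSMUST00000114723 was at 314 ± 36.3 in Sham and 273 ± 37.0 in HF-HI (VSD difference −0.06, adjusted p = 0.558, exact permutation p = 0.0479). The T-type genes Cacna1h and Cacna1i, at 268 ± 66.8 and 1463 ± 43.7 in Sham and at 236 ± 22.4 and 1537 ± 110 in HF-HI, did not pass (adjusted p = 0.761 and adjusted p = 0.669).

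Of 22 genes whose proteins bind these channels or act on the calcium that enters through them, 21 were listed with 49 transcripts, of which 7 were higher and 3 lower (20.4%, beside 8.83% of all transcripts). The list was not tested as a set. The CaMKII kinase transcript Camk2a ENSMUST00000102888 was higher (7779 ± 392 against 8585 ± 417, VSD difference 0.12, adjusted p = 0.311). So was Ryr2 ENSMUST00000021750, which encodes a calcium release channel of the endoplasmic reticulum (2636 ± 98.1 against 3231 ± 590.2, VSD difference 0.19, adjusted p = 0.405). The other listed Ryr2 transcript, ENSMUST00000170156, with the same coding length of 14898 bases, was lower on average (2168 ± 96.0 against 1813 ± 518, VSD difference −0.18, not called, 5 HF-HI libraries below every Sham library), so no direction is given for Ryr2 as a gene. Snap25 ENSMUST00000028727, a SNARE protein of vesicle fusion, was higher by a VSD difference of 0.11. Kcnma1 encodes the calcium-activated BK potassium channel, and its ENSMUST00000074983 was higher by 0.06 (mean 157 in Sham against 192 in HF-HI). The most abundant listed Kcnma1 transcript, ENSMUST00000179097, was at 1061 and 1081 (VSD difference 0.01, adjusted p = 0.940). No other listed Kcnma1 transcript was called, so no direction is given for Kcnma1 as a gene.

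In Cabp1 and Camk2b, 1 transcript was higher and another lower. For Cabp1, a calcium-binding regulator of L-type and P/Q-type channels, ENSMUST00000112112 was at 319 ± 33.5 and 447 ± 95.5 while ENSMUST00000112113 was at 504 ± 69.6 and 393 ± 82.7 (adjusted p = 0.319 and adjusted p = 0.404). For Camk2b, ENSMUST00000109815 rose from 836 ± 373 to 1379 ± 436 and ENSMUST00000109813 was at 3131 ± 413 and 2655 ± 345. None of these passed the adjusted threshold.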

How the data were processed

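Total RNA from dissected cortex was sequenced for 7 Sham and 8 HF-HI libraries. The methods of the study state that stranded, ribosomal RNA-depleted libraries were prepared and that the authors aligned reads to mm10 with STAR, counted reads per Ensembl transcript with eXpress, normalized with DESeq2 and removed outliers by Cook's distance. The annotation release is not given in the sources used here. The deposited values are variance-stabilized (VSD), on a log2 scale, for 10370 transcripts, with a column per library.

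The transformation was inverted from the VSD shared by all columns for a count of 0 (9.81). All values (100%) then fell on whole reads within a tolerance of 0.1 reads, which gave size factors and normalized counts. The lowest mean was 107.9 normalized counts, so rarer transcripts were not analysed here. On the VSD scale a doubling from 500 normalized counts is a difference of 0.41. Identifiers were matched to GENCODE M21 (10241 matched, 129 did not), and sequences were read from its transcripts. Unmatched transcripts entered the transcript test only.

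Each transcript was tested with limma 3.58.1 (R 4.3.3) on VSD values, group as the only term, eBayes with trend, two-sided, and Benjamini-Hochberg adjustment over all transcripts (threshold 0.1, the study's). Gene sums were tested likewise as log2 of the sum plus 1, and shares by exact permutation of group means. Exact permutation p-values for single transcripts and gene sums were added after seeing the data. Called means an unadjusted p under 0.05. Code was tested on simulated data. The members and lists were chosen with earlier results of these data known. Values are given for transcripts that were called, the most abundant transcript of each gene and every gene sum, and for other lists where a transcript was called (1 gene of those lists is not reported here); other transcripts are summarised, and those named beyond that were chosen after their values were seen. Alternatives changed the scaling, prior, filter, pseudocount, library weights, covariates, replicate block and test, and left out each library in turn.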

Additional observations from a re-analysis of the deposited data

Results flagged for a closer look

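In 8 of 54 groups of values examined, 1 library lay apart from the rest of its group by Dixon's test at the 95% level, where chance flags about 1 in 20. Of gene sums this was Cacna2d1 in Sham replicate 1, the highest at 3224 normalized counts with the next at 3099. For transcripts it was Cacna1b ENSMUST00000114447 in HF-HI replicate 7 (835, next 516), Cacna2d1 ENSMUST00000167946 in HF-HI replicate 1 (547, next 402) and Cacna1c ENSMUST00000112790 in HF-HI replicate 6 (628, next 434). In those 3 libraries another transcript of the gene was the lowest of its group: Cacna1b ENSMUST00000102939 at 525, Cacna2d1 ENSMUST00000101581 at 1595 and Cacna1c ENSMUST00000078320 at 29.5. The remaining flags were both transcripts of a gene in the same library. In HF-HI replicate 4, Cacna1d ENSMUST00000112250 was highest at 332 and ENSMUST00000112249 lowest at 365. In Sham replicate 5, Cacnb3 ENSMUST00000003442 was highest at 719 and ENSMUST00000109150 lowest at 236. The sums of these 5 genes did not stand apart in those libraries by the same test.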

How the results depend on the processing

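The count of gene sums called stayed at 2 or 3 of 10 under all 26 alternatives. Cacna1b lost its call with the size factor as a covariate (0.11), Cacna1c without Sham replicate 4 (−0.10) and Cacna1d with the replicate block (0.08), and in every other alternative the 3 calls held. Adjusted p over the alternatives ran from 0.206 to 0.915 for Cacna1b, from 0.279 to 0.716 for Cacna1c and from 0.286 to 0.833 for Cacna1d. The transcript calls depended more on the processing. The count of 2 fell to 0 with the replicate block, with the size factor as a covariate and with the striatal covariate, and to 1 with the exact permutation test (Cacna1c ENSMUST00000112790) and among libraries with a size factor above 0.7 (Cacna1d ENSMUST00000112249). The exact test, the size factor limit and the striatal covariate for gene sums were chosen after seeing the data. Leaving out 1 library gave 0 to 5, with 5 without Sham replicate 2, 1 without Sham replicate 5 or HF-HI replicate 6 and 0 without Sham replicates 1, 4 or 7 or HF-HI replicates 1, 5 or 7. Cacna2d1 ENSMUST00000078272 kept its call in 11 of 28 alternatives (adjusted p 0.461 to 0.961) and Cacna1c ENSMUST00000112790 in 18 (0.370 to 0.959), and neither changed direction. Calls on shares ranged from 0 to 3 with a library left out (3 without Sham replicate 2, 2 each without HF-HI replicates 2 and 6). The cause was not tested.

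Over all transcripts, 525 were called with a mean of at least 300 normalized counts (fewer transcripts tested) and 533 with the size factor as a covariate. At an adjusted p under 0.1 the count was 0 to 1 with a library left out (1 without Sham replicate 5 or HF-HI replicates 2 or 5) and 2 above the size factor limit. Replicate numbers did not pair the libraries (correlations of deviations −0.138 to 0.0905 over 7 pairs), and the block gave HF-HI replicate 8, which has no Sham partner, no weight. Depth limits the values of Cacna1g most, with a counting CV of 8.37%.

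Differences that changed sign were all uncalled. For transcripts, Cacna1g was 0.0035 with quantile normalization, 0.0257 with library weights, 0.0446 with the size factor as a covariate, 0.23 with voom on reads and 0.0468 above the size factor limit. With the size factor covariate Cacna1e was −0.0267 and Cacnb4 ENSMUST00000102760 was 0.0643, and above the limit they were −0.00143 and 0.0411. Cacna2d3 was 0.00211 with the striatal covariate. For gene sums, the block gave −0.00318 for Cacna2d1 and −0.000379 for Cacnb3. The size factor covariate gave −0.0367 for Cacna1e, 0.23 for Cacna1g, −0.00277 for Cacnb3 and 0.0118 for Cacnb4. Voom on summed reads gave 0.125 for Cacna1g and −0.00592 for Cacnb3. Above the limit the sums were −0.00146 for Cacna1e, 0.24 for Cacna1g, −0.0256 for Cacnb3 and 0.00265 for Cacnb4. The striatal covariate gave −0.0073 for Cacna2d1 and 0.00419 for Cacna2d3. With a library left out, transcript differences ran from −0.018 to 0.0361 for Cacna1b ENSMUST00000102939, −0.0368 to 0.00891 for Cacna1g, −0.0144 to 0.00198 for Cacna2d3 and −0.0713 to 0.0209 for Cacnb4 ENSMUST00000102760, and gene sums from −0.214 to 0.0465 for Cacna1g, −0.00318 to 0.0163 for Cacna2d1, −0.0291 to 0.00429 for Cacna2d3, −0.0361 to 0.0284 for Cacnb3 and −0.0364 to 0.00383 for Cacnb4.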
